A study of Mus musculus with 8 samples.

Results

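The 8 miRNAs described here are encoded within metabolic genes and were measured in the liver of mice on a diet that lacks methionine and choline (MCD diet). They were chosen by the name of the probe on the array: mmu-miR-33 and mmu-miR-33* (host gene Srebf2), mmu-miR-378 and mmu-miR-378* (Ppargc1b), mmu-miR-103 and mmu-miR-107 (the Pank genes), and mmu-miR-335-5p and mmu-miR-335-3p (Mest). The species prefix is left out below. They are 8 of the 1135 miRNA probes on the array, and all 8 passed the filter on dim probes, as did 1070 probes in all. Liver RNA came from 4 male C57BL/6N mice on the MCD diet without treatment and from 4 on the same diet that also drank metformin with their water, 2.4 mg/day over 15 weeks. The diet was started at 8 weeks of age, and each array held the liver RNA of 1 mouse. Both groups share the diet, a model of steatohepatitis, and mice on normal chow are not analysed here.

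An intronic miRNA is cut from the transcript of its host gene, so that host and miRNA can be made together, and the hairpin gives a 5p and a 3p arm, the rarer of which older names mark with a star. Srebf2 encodes the transcription factor that turns on cholesterol synthesis, and miR-33 represses the cholesterol exporter Abca1 and genes of fatty acid oxidation. Ppargc1b encodes PGC-1beta, a coactivator of mitochondrial and lipid genes, and in mice miR-378 and miR-378* repress carnitine acetyltransferase and Med13. The Pank genes encode pantothenate kinases, which start coenzyme A synthesis, and miR-103 and miR-107 repress caveolin-1 and lower insulin sensitivity in mice. Mest is an imprinted gene expressed from the paternal allele and raised in expanding fat, and miR-335 has been linked to lipid load in the liver and fat of obese mice. The messenger RNAs of the hosts were not part of these arrays.

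The mature sequences are shown because the groups below rest on which of them are arms of a hairpin and which share a seed. Capitals mark the seed, bases 2 to 8 counted from the 5′ end, which pairs with targets. Sequences are from RefSeq (GRCm38.p6), matched by the current name of each miRNA.
miR-33 (now miR-33-5p): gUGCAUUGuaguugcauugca
miR-33* (now miR-33-3p): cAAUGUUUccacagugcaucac
miR-103 (now miR-103-3p): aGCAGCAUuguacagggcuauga
miR-107 (now miR-107-3p): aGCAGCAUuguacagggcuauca
miR-335-5p: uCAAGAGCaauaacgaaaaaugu
miR-335-3p: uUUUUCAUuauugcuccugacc
miR-16 (now miR-16-5p, for comparison): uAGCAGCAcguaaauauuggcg
miR-103 and miR-107 are 23 bases long and differ at 1 position, G22C, counted from the 5′ end of miR-103. Their seed was held by 2 of 1679 mature mouse miRNAs, that is, by these 2 only. The seeds of miR-33, miR-33*, miR-335-5p and miR-335-3p were each held by 1 of the 1679. The seed of miR-16 shares 6 of its 7 bases with that of miR-103 after a shift by 1 base.

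The hairpins in Srebf2 and Mest are shown for the place of the arms that are compared below. Capitals mark the mature arms.
Mir33, chr15:82198122-82198190, plus strand: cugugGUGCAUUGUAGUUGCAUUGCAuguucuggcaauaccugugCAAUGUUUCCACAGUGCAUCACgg
Mir335, chr6:30741299-30741396, plus strand: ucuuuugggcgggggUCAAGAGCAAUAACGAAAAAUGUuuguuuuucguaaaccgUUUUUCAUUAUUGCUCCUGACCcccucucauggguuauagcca
Each hairpin lay inside the bounds of its host gene on the same strand in the RefSeq annotation, as did Mir103-1 in Pank3, Mir103-2 in Pank2 and Mir107 in Pank1. The mature miR-103 is the same from both of its hairpins, chr11:35782447-35782469 and chr2:131288103-131288125 (plus strand), so that its signal cannot be divided between Pank3 and Pank2. Mature miR-107 lies at chr19:34820700-34820722 on the minus strand. Intron and exon bounds were not used here.

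Values are the scanner signal of each spot in arbitrary units, or its log2 value after background correction and scaling of the arrays (normalized log2 intensity). A probe counted as detected where its signal exceeded the blank spots' mean by 2 SD, and 848 to 1018 miRNA probes did so per array. The stricter limit, set the same way on the negative control spots, was passed by 198 to 284. Local background, as the median over all spots, differed without overlap between MCD arrays (156 to 162) and metformin arrays (135 to 143) (exact permutation test, two-sided, p = 0.0286, the smallest that 4 against 4 arrays can give). The top spots of all MCD arrays lay at 3680 to 3690 in the scanner's coordinates and those of all metformin arrays at 35240 to 35270, so that the position of an array and the treatment cannot be told apart in any result below. All 6 hepatocyte miRNAs used as markers passed the negative control limit on all 8 arrays, whereas 0 of the 4 muscle miRNAs on the array did. In whole liver, fewer cells of a type and less RNA per cell cannot be told apart.

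Of the 8 miRNAs, miR-335-5p had the largest difference between the groups and was higher with metformin by 1.30-fold. For miR-378 the estimate was 1.19-fold, with overlapping groups. For miR-103, miR-107 and miR-33 the log2 fold changes were 0.16, 0.17 and 0.12, with intervals that included 0. The star or 3p arms miR-33*, miR-378* and miR-335-3p had log2 fold changes of -0.00049, 0.06 and 0.04.

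With limma and a threshold of 0.05 before adjustment, 1 of the 8 was higher with metformin and 0 were lower. The background over all probes tested was 9.44% in either direction, 6.36% higher (68 probes) and 3.08% lower (33 probes). After Benjamini-Hochberg adjustment over the 1070 probes, 0 of the 8 and 0% of all probes passed, the smallest adjusted p among the 8 being 0.285 from limma. The balance of directions over all probes depended on the scaling and on the background correction. It was 43 higher and 50 lower after quantile normalization, 24 and 60 without scaling, 41 and 39 without background correction and 41 and 40 with the blank spots as background, whereas scaling on all probes left it at 63 and 36. With offset 0 it was 60 and 38, and with plain subtraction of the background 86 and 32. In the authors' deposited table, which differs in background, scaling and the probes listed, it was 30 and 46. The log2 fold change was positive for 7 of the 8, as for 58.4% of all probes. Its median was 0.14 over the 8 and 0.03 over all probes. The values of the 2 groups did not overlap in 1 of the 8, against 4.77% of all probes (2.8% higher and 1.96% lower with metformin). A share of 1 in 8 rests on 1 miRNA.

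**Figure D1:**
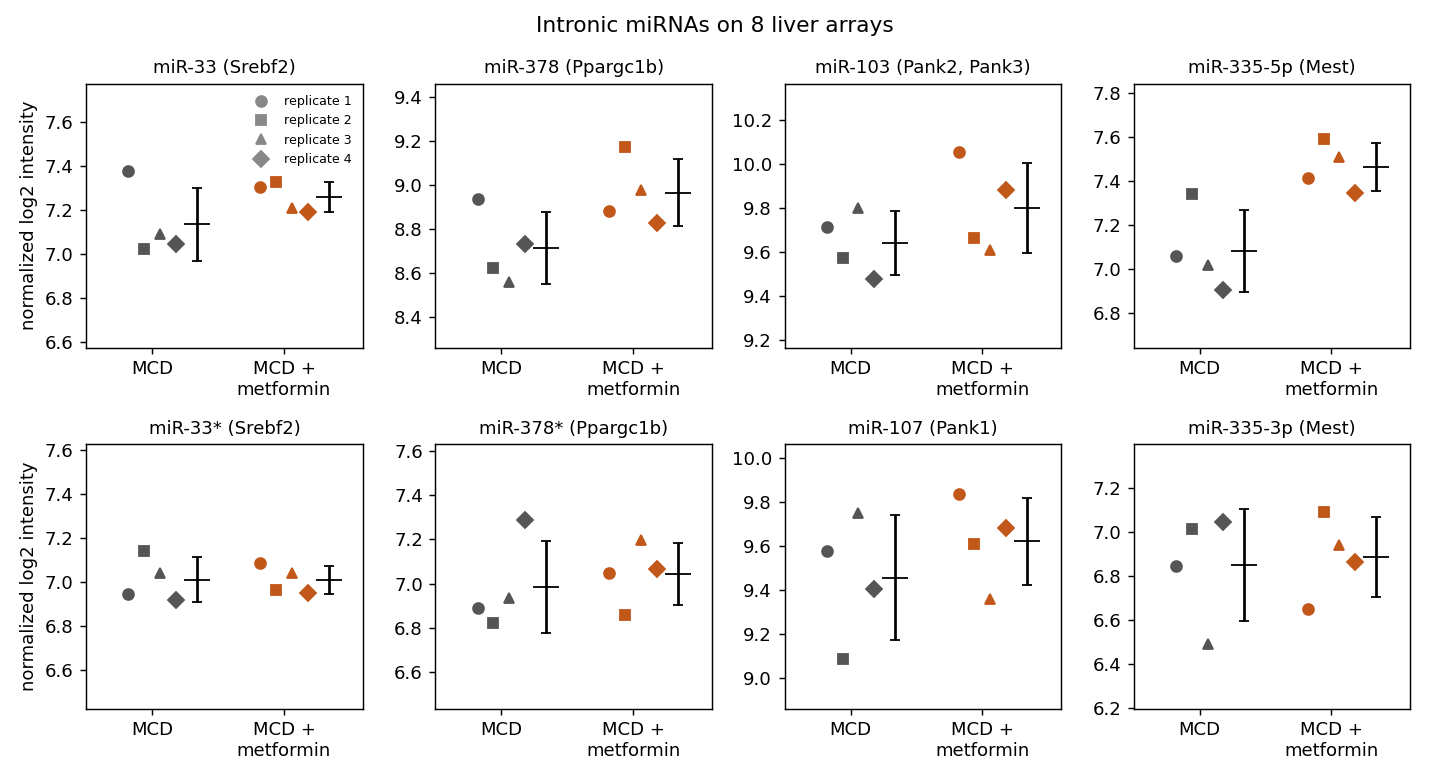
Normalized log2 intensity of each of the 8 miRNAs on the 4 MCD arrays (grey) and the 4 MCD + metformin arrays (orange), with 1 marker shape per replicate number, and the mean and SD of each group as bars. miR-335-5p is the only panel whose groups do not overlap, and MCD replicate 2 nearly reaches the lowest metformin array there.

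**Figure D2:**
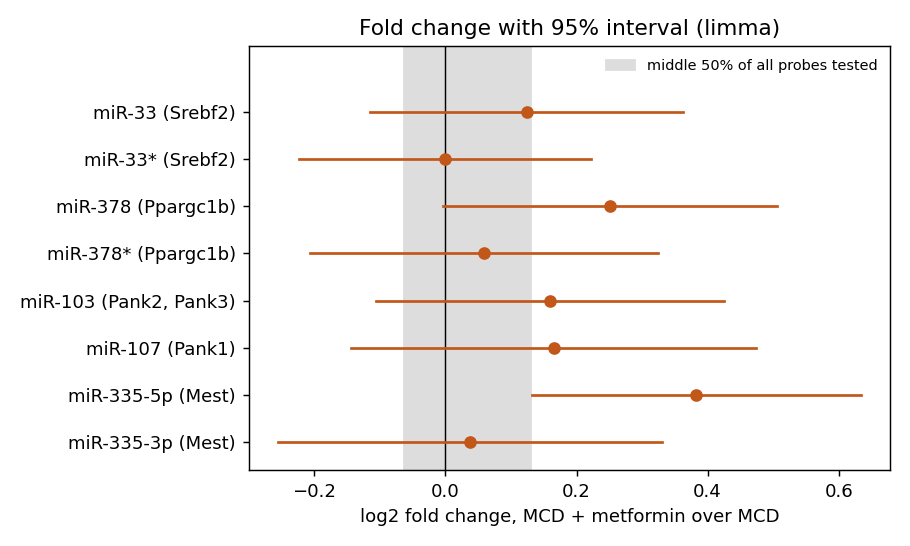
Log2 fold change of MCD + metformin over MCD (points) with the 95% interval from limma (lines) for the 8 miRNAs, and the middle 50% of all 1070 probes tested (grey band). The interval excludes 0 for miR-335-5p (0.13 to 0.63) and reaches -0.003 for miR-378.

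miR-335-5p, the 5p arm of the hairpin in Mest, had signals of 300, 318, 294 and 287 in MCD-fed mice and of 338, 337, 324 and 325 in MCD-fed mice treated with metformin (replicates 1 to 4). Every metformin array was thus above every MCD array in the unprocessed signal. The signal exceeded the negative control limit on 1 of the 4 MCD arrays and on 4 of the 4 metformin arrays, so that most of the MCD values were close to the floor of the array. In normalized log2 intensity the group means were 7.08 ± 0.19 and 7.47 ± 0.11 (SD, n = 4 each). The log2 fold change was 0.38 (standard error 0.12, 95% interval 0.13 to 0.63), with an unadjusted p of 0.00533 and an adjusted p of 0.285 from limma, and the exact permutation test gave p = 0.0286.

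The groups of miR-335-5p were parted by 0.0021 log2 units only, between MCD replicate 2 and metformin replicate 4. Without MCD replicate 2 that gap was 0.28 and the log2 fold change 0.46. The groups overlapped with plain subtraction of the background, without scaling, and without MCD replicate 4, metformin replicate 1 or metformin replicate 3, and were apart in the other alternatives that change the values. The local background around this spot was 173 to 184 on the MCD arrays and 147 to 162 on the metformin arrays, so that its subtraction widened the difference between the signals. The part of this in the log2 fold change was not tested. With the blank spots in place of the local background the log2 fold change was 0.33. With the other background settings it was 0.18 (no correction), 0.40 (plain subtraction) and 0.57 (offset 0). It was 0.62 in the authors' deposited table, which also differs in scaling and in the probes listed, and where the normalized intensities were 56.5 to 88.1 without and 102 to 115 with the drug. The unadjusted p stayed under 0.05 in all 22 alternatives (0.00137 to 0.0269) and the adjusted p from limma above it (0.197 to 0.547, or 0.522 by the methods' t-test).

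**Figure D3:**
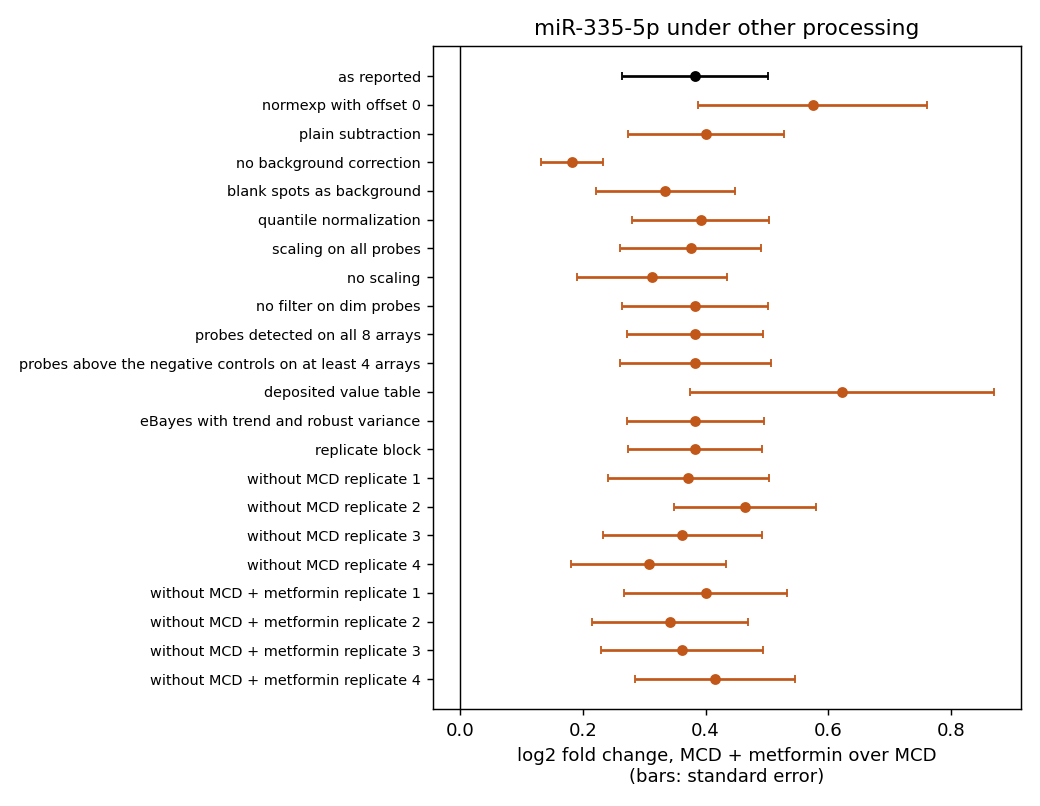
Log2 fold change of miR-335-5p, MCD + metformin over MCD, as reported (black) and under the alternatives that give a standard error (orange, bars ± standard error). All points are above 0, between 0.18 without background correction and 0.62 in the deposited value table.

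The other arm of the same hairpin, miR-335-3p, was near the blank spots, with signals of 238 to 282 on the MCD arrays and of 242 to 268 on the metformin arrays. It was detected on 6 of the 8 arrays and never passed the negative control limit. Its log2 fold change was 0.04 (standard error 0.14, 95% interval -0.26 to 0.33). The change of miR-335-5p exceeded that of miR-335-3p by 0.35 log2 units, which did not pass the exact permutation test (p = 0.0857, or 0.343 after adjustment over the 4 pairs of probes compared). In 3 of 15 alternatives its unadjusted p was below 0.05, the adjusted p in all of them being at least 0.114 by the exact permutation test. At this signal a difference of the 3p arm anywhere within its interval is compatible with the values.

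miR-378, made from an intron of Ppargc1b, had signals of 661, 535, 539 and 565 in MCD-fed mice and of 628, 702, 595 and 590 with metformin (replicates 1 to 4). It passed the negative control limit on all 8 arrays. MCD replicate 1 was the second highest of the 8 in signal, and the other MCD arrays were below all metformin arrays. The log2 fold change was 0.25 (standard error 0.12, 95% interval -0.003 to 0.51), with an unadjusted p of 0.0524 and an adjusted p of 0.529 from limma. Leaving out an array moved it both ways. Without MCD replicate 1 it was 0.32 with an unadjusted p of 0.0197 (adjusted p = 0.416 from limma) and no overlap, and without metformin replicate 2 it was 0.18 with an unadjusted p of 0.159 from limma. Under other processing of all arrays it ran from 0.14 with plain subtraction of the background (unadjusted p = 0.293 from limma) to 0.31 with offset 0 (unadjusted p = 0.0949 from limma), and was 0.15 after quantile normalization (unadjusted p = 0.403 from limma). With trended and robust eBayes the unadjusted p was 0.117 from limma.

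The star arm miR-378* had signals of 262 to 305 on the MCD arrays and of 253 to 279 on the metformin arrays, and passed the negative control limit only on MCD replicate 4. Its log2 fold change was 0.06 (standard error 0.13, 95% interval -0.21 to 0.32). The change of miR-378 exceeded that of miR-378* by 0.19 log2 units, less than the spread between arrays (exact permutation test, p = 0.371). A further probe, that of the related miR-378b, had signals of 480 to 796 on the MCD arrays and of 627 to 838 on the metformin arrays. Its log2 fold change was 0.39 (standard error 0.16), with an unadjusted p of 0.0264, an adjusted p of 0.441 from limma and overlapping groups. It has a name of its own and is not counted among the 8. How far the probes of miR-378 and miR-378b each also bind the other miRNA was not tested.

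miR-103, from introns of Pank2 and Pank3, had signals of 1035, 896, 1083 and 843 in MCD-fed mice and of 1239, 935, 846 and 1056 with metformin (replicates 1 to 4). The groups overlapped over most of their range. The log2 fold change was 0.16 (standard error 0.12, 95% interval -0.11 to 0.43, adjusted p = 0.709 from limma).

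miR-107, from Pank1, had signals of 956, 683, 1054 and 812 in MCD-fed mice and of 1090, 907, 738 and 944 with metformin. Its MCD arrays spanned 0.66 log2 units, the widest range of the 8 miRNAs within a group. The log2 fold change was 0.17 (standard error 0.15, 95% interval -0.14 to 0.47, adjusted p = 0.777 from limma), and 0.04 without MCD replicate 2, the lowest array. Both miRNAs passed the negative control limit on all 8 arrays.

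miR-103 and miR-107 moved together from liver to liver. Across the 8 arrays Pearson's r was 0.80 (exact permutation test, p = 0.0157, adjusted over 4 pairs of probes p = 0.0627) and Spearman's rho 0.88 (exact permutation test, p = 0.00724, adjusted p = 0.0290). Without metformin replicate 1 and MCD replicate 4, the 2 arrays farthest from the median of miR-103, r was 0.83, and after removal of the group means it was 0.77. Other probes, picked for being highest, had a higher r with each of them (miR-27b 0.96 with miR-103, miR-5100 0.91 with miR-107). Each group has 4 arrays, too few for a value within a group. The difference of the 2 log2 values changed by -0.0053 between the groups (exact permutation test, p = 0.971). The miRNAs differ by 1 base, and how far each probe also binds the other miRNA was not tested. The star arms of these hairpins were dim: miR-107*, miR-103-1* and miR-103-2* passed the negative control limit on 1, 2 and 1 of the 8 arrays, with log2 fold changes of 0.13, 0.02 and 0.02.

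**Figure D4:**
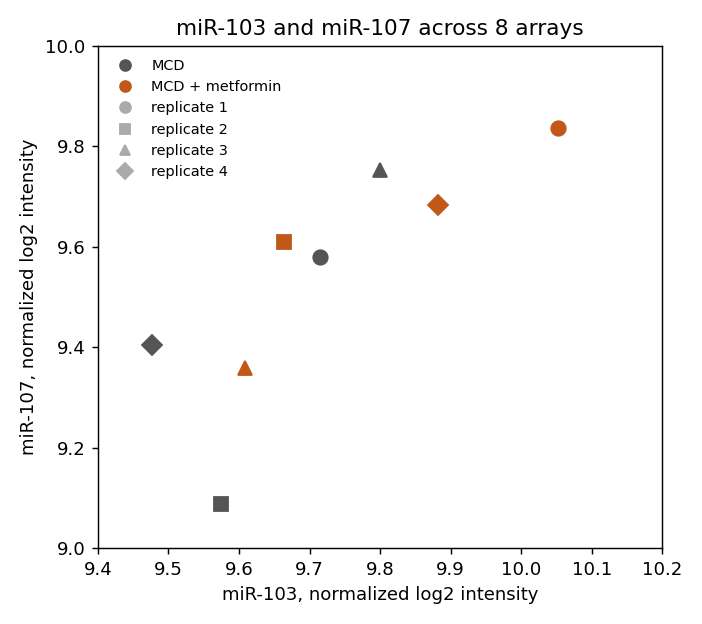
Normalized log2 intensity of miR-107 against that of miR-103 on each of the 8 arrays, coloured by group, with 1 marker shape per replicate number. The points lie along a rising line (r = 0.80) on which MCD and MCD + metformin arrays are mixed.

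miR-33, made from an intron of Srebf2, had signals of 321, 276, 285 and 280 in MCD-fed mice and of 304, 295, 273 and 288 with metformin (replicates 1 to 4). The unprocessed means were 290.5 ± 20.7 and 290.0 ± 13.1 (SD, n = 4 each), and the local background was 157 to 165 against 136 to 141. After background correction and scaling the log2 fold change was 0.12 (standard error 0.11, 95% interval -0.11 to 0.36, adjusted p = 0.786 from limma). Without MCD replicate 1, the highest array, it was 0.20 and the groups no longer overlapped, with an adjusted p of 0.603 from limma. The signal passed the negative control limit on 2 of the 8 arrays, MCD replicate 1 and metformin replicate 1.

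Its star arm miR-33* had signals of 263 to 281 on the MCD arrays and of 253 to 282 on the metformin arrays, and passed that limit on none of the 8 arrays. The log2 fold change was -0.00049 (standard error 0.10, 95% interval -0.22 to 0.22). At these signals a difference of either arm anywhere within its interval is compatible with the values. The change of miR-33 exceeded that of miR-33* by 0.12 log2 units (exact permutation test, p = 0.343). Without MCD replicate 1 that difference was 0.23 (exact permutation test, p = 0.0286, the smallest that 3 against 4 arrays can give, or 0.114 after adjustment over the 4 pairs).

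For the arms of 1 hairpin no correlation across the arrays passed its test. Pearson's r over the 8 arrays was 0.29 for miR-335-5p and miR-335-3p (exact permutation test, p = 0.490), -0.01 for miR-378 and miR-378* (p = 0.979) and -0.27 for miR-33 and miR-33* (p = 0.508). Spearman's rho was 0.26, 0 and -0.21 (exact permutation tests, p = 0.536, 1 and 0.619), and no adjusted p over the 4 pairs was below 0.678. Without the 2 arrays farthest from the median of the first arm, r was 0.37, 0.24 and 0.39. In each of these pairs the second arm was dim. Whether these r values differ from that of miR-103 and miR-107 was not tested. Among all pairs of the 8, the only other pair with r as high as 0.80 was that of miR-33 and miR-378, picked out after its value was seen and given without a test.

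The probes whose pattern over the 8 arrays was most like each miRNA were taken from the 450 others detected on all arrays, and were chosen for their high r, which therefore carries no p. For miR-378 they were miR-148a (r = 0.97), miR-692 (0.91) and miR-192 (0.91). miR-148a and miR-192 are miRNAs of hepatocytes, and with the group means removed r was 0.95 and 0.82. For miR-335-5p they were the liver-specific miR-122 (0.86), miR-1946b and miR-883b-3p (both 0.84), and with the group means removed r with miR-122 was 0.46. For miR-103 they were miR-27b (0.96), miR-2861 and miR-30c (0.90 and 0.89), and for miR-107 miR-5100, miR-145 and miR-100 (0.91, 0.91 and 0.89). The likest probes of miR-33 were miR-532-3p, miR-341 and miR-338-3p (0.95, 0.91 and 0.89), of miR-33* miR-26a-1*, let-7f-1* and miR-210 (0.87, 0.84 and 0.82), and of miR-378* miR-3061-3p, miR-327 and miR-874* (0.80, 0.80 and 0.79). Each of these 9 probes passed the negative control limit on at most 1 array, and miR-1946b and miR-883b-3p did so on 0.

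Hepatocyte and endothelial markers were higher with metformin at the unadjusted threshold, as was miR-335-5p. Over all probes 6.36% were higher and 3.08% lower at that threshold. The marker lists were chosen with earlier results of these data known. The summed normalized intensity of the 6 hepatocyte miRNAs was 23900.5 to 26000.1 on the MCD arrays and 29775 to 39291 on the metformin arrays, and 6 of 6 were higher at the unadjusted threshold of limma, with 0 after adjustment. That of both arms of the endothelial miR-126 was 3727 to 4648 and 4816 to 5655, with 2 of 2 higher at the unadjusted threshold and 0 after adjustment. Of 6 stellate cell and fibroblast miRNAs 2 were lower (5296 to 11046 and 4699 to 7022), of 5 biliary ones 1 (1175 to 3001 and 804 to 2155) and of 5 leukocyte ones 1 (983 to 1497 and 821 to 1085), with overlapping sums and 0 after adjustment. None of the muscle miRNAs (413 to 485 and 430 to 496) or of the 3 red blood cell miRNAs (828 to 2004 and 1148 to 2065) passed the unadjusted threshold. The part of these shifts in the values of miR-335-5p and miR-378 was not tested.

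Other miRNAs with a role in lipid and glucose metabolism were measured on the same arrays. Of 25 such probes tested, 4 were higher and 3 lower at the unadjusted threshold of limma (6.36% and 3.08% of all probes), and 0 after adjustment, with a median log2 fold change of 0.10 (0.03 over all probes). Of those past the threshold, miR-122 and miR-148a, both higher, are also among the hepatocyte markers. Of the lower ones, miR-21 is also a stellate cell and fibroblast marker and miR-223 a leukocyte marker. The smallest p values belonged to miR-21 (log2 fold change -0.70, standard error 0.17), miR-122, which sustains lipid synthesis in hepatocytes (0.44, standard error 0.11), miR-34a, which represses Sirt1 (-0.46, standard error 0.15), and miR-148a, which represses the LDL receptor (0.38, standard error 0.13).

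Of 40 other tested probes for miRNAs that lie in introns of protein-coding genes, 3 were higher and 1 lower at the unadjusted threshold, a share near that of all probes (6.36% and 3.08%), and 0 after adjustment, with a median of 0.06. Those 4 were miR-342-3p of Evl (-0.42, standard error 0.11), both arms of miR-126 in Egfl7 (miR-126-3p 0.29, standard error 0.11, and miR-126-5p 0.32, standard error 0.12) and miR-101b of Rcl1, also a hepatocyte marker (0.26, standard error 0.11). The 6 members of the miR-15 and miR-16 family, whose seed overlaps that of miR-103 and miR-107, had log2 fold changes of -0.37 to 0.0078 and a median of -0.10, and 0 of them passed the unadjusted threshold. The largest of these was that of miR-497 (-0.37, standard error 0.20).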

How the data were processed

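The authors labelled liver RNA, hybridised it to a mouse miRNA Oligo chip and read each spot, and the deposited scanner intensity is the median signal of a spot and of its local background, linear and not normalized. The deposited value table holds intensity that the authors normalized per array (median 45 on each array, 57 to 173 probes empty). The label is Hy5 per the labels, whereas the only filled scanner channel is headed by another wavelength. Groups and replicate numbers came from the sample titles, and 0 columns of other samples were met.

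The signal was corrected with normexp of limma 3.58.1 in R 4.3.3 (offset 50, fitted on all 3136 spots), blank and control spots were then left out, and each array's log2 values were shifted to a common median over the 451 probes that every array detected. The 1070 probes that 4 or more arrays detected went into lmFit and eBayes (two-sided, no pairing), and p-values were adjusted over them by the Benjamini-Hochberg method. Log2 fold changes are MCD + metformin over MCD, and the offset makes them understate changes of dim probes. Exact permutation tests of a difference used all 70 assignments of the 8 arrays to the groups (fewer where an array was left out), and those of a correlation all pairings of the values. The number of arrays limits the precision. A p-value for a difference between the groups sets that difference against the spread between these mice. Treatment and array position coincide in that difference. The functions were tested on simulated data.

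Named miRNAs were the 8, the 3 probes with the highest r to each of those detected on all arrays, and, for each list, the members with the smallest p (at most 4). miR-16 was named only for the comparison of its sequence with that of miR-103. The members and lists were chosen with earlier results of these data known. The methods' normalization to 28S and analysis of variance were not run. The alternatives were 4 other background corrections, 3 other scalings, 3 other filters, the deposited table, a t-test as in the methods, a trended and robust eBayes, a block for the replicate number, and each array left out in turn.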

Additional observations from a re-analysis of the deposited data

Results flagged for a closer look

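Of 24 groups of 4 arrays checked for an outlying array (each of the 8 miRNAs and the 4 differences within a pair of probes, in both treatment groups), 1 was marked, and chance marks about 1 in 20. The difference between the log2 values of miR-378 and miR-378* was 2.31 on metformin replicate 2 and 1.76 to 1.83 on the other metformin arrays, a gap of 0.872 of the whole range. On that array miR-378 had its highest signal (702) and miR-378* its lowest (253), and without it the change of miR-378 against miR-378* with metformin was 0.06 in place of 0.19 log2 units.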

How the results depend on the processing

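miR-33, miR-378, miR-103, miR-107 and miR-335-5p had a positive log2 fold change in all alternatives run, though some came near 0. With plain subtraction miR-103 was at 0.017, miR-107 at 0.027 and miR-378 at 0.14 (from 0.16, 0.17 and 0.25), and without background correction miR-33 was at 0.037 (from 0.12). None of the 8 miRNAs passed an adjusted p of 0.05 in any. The 3 dim arms changed sign. For miR-33* (-0.00049) the value was 0.032 with plain subtraction, 0.0054 without background correction, 0.021 with the blank spots as background, 0.032 in the deposited table, and -0.048 to 0.037 when an array was left out. For miR-335-3p (0.04) it was -0.021 without background correction, -0.032 with the blank spots as background, -0.033 without scaling, -0.50 in the deposited table, which lists dim probes in part, and -0.081 to 0.12 when an array was left out. For miR-378* (0.06) it was -0.011 without scaling and -0.0011 to 0.14 when an array was left out. The change of miR-103 against miR-107 was -0.051 to 0.095 when an array was left out. The cause was not tested.

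The count of the 8 past the unadjusted threshold was 1, and 2, with miR-378 added, when only probes detected on all 8 arrays were tested, and 1 to 2 when an array was left out (2 without MCD replicate 1 or metformin replicate 4). Over all probes the count was 101, but 56 of the 451 probes detected on all arrays and 34 of the 221 probes above the negative controls on at least 4 arrays, where fewer were tested. The last filter left out miR-33, miR-33*, miR-378* and miR-335-3p, and the former miR-335-3p. After adjustment it was 0, and 0 to 9 when an array was left out (9 without MCD replicate 4, none of them among the 8). With the replicate number as a block it was 87 before adjustment, and the log2 fold change of miR-335-5p stayed at 0.38. Same-numbered arrays did not deviate together from their group means (r = -0.30 to 0.03 over all probes tested). With 4 arrays per group this cannot decide whether the numbers pair them. The block changed no call among the 8. The dim arms, at or near the blank spots, limit what these arrays can show.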
